A study of Mus musculus with 24 samples.

Results

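Brain libraries of mice that drank brazzein were compared with brain libraries of mice that drank water. The comparison took every library that the sample titles call brain and brazzein, 4 in all (2 db/db and 2 db/+), and every library that they call brain and water, also 4 (2 db/db and 2 db/+). These 8 are part of 24 libraries from brain and liver, and another 4 brain libraries, from mice on sucrose, are used below for side by side values. All mice were male and of the strain that the labels give as C57/BL6, with a treatment entry of 16 weeks. The db/db mice are homozygous for a defective leptin receptor allele, and the db/+ mice carry 1 such allele beside a working one. No wild-type mice entered these groups, so every library comes from a carrier of the db allele. The sweetener is called 3M-Brazzein in the study's design text, which states the aim as the effects of it and of sucrose on brain and liver in leptin receptor deficiency. The labels do not say which part of the brain was taken, nor whether replicates 1 and 2 of a group are separate animals, so p-values measure the spread between libraries, which may be technical.

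Brazzein is a small plant protein that tastes sweet to humans, in whom it acts on the sweet taste receptor, a dimer of the proteins TAS1R2 and TAS1R3. Leptin, released by fat tissue, restrains feeding by acting on hypothalamic neurons, and mice without a working receptor overeat, become obese and develop diabetes. Sweet taste also engages reward circuits that use dopamine, opioids and endocannabinoids, and stimulated neurons switch on immediate early genes such as Fos and Arc within minutes. These pathways, the main brain cell types and the regions of the brain were therefore described list by list, with 40 lists in all.

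The 8 libraries held between 65713353 and 76908341 estimated counts, and between 29299 and 30180 genes lay above 0. Levels below are in CPM, counts scaled to the TMM-adjusted library total, and levels of different genes are not compared because CPM is not divided by gene length. The neuronal gene Snap25 lay between 2700 and 2760 CPM in brazzein libraries and between 2680 and 2880 CPM in water libraries. The liver gene Alb held 0, 4.86, 0 and 0 CPM with brazzein and 0.475, 2.46, 0 and 0 CPM with water (db/db, db/db, db/+, db/+, the order of every such list here). Mitochondrial genes took 6.61% to 7.46% of counts in brazzein libraries and 6.56% to 7.42% in water libraries. Replicates of a group correlated at r = 0.973 to 0.975 across genes. Lepr, which encodes the leptin receptor, held 2.61, 2.42, 3.12 and 3.39 CPM in brazzein libraries and 2.32, 2.76, 3.59 and 3.38 CPM in water libraries. The count pools the long and short receptor forms and so does not check the mutation.

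A pair of libraries stood apart. In db/+ water replicate 1, 26 of 28 genes of cerebellar Purkinje and granule cells were at their lowest of the 8 libraries, and 23 of 39 immediate early genes were at their highest. How many of all tested genes were at an extreme in that library was not counted. Pcp2, a Purkinje cell gene, held 17.4 CPM in it, against 69.5 to 72.5 CPM in the other 3 water libraries. In db/+ brazzein replicate 2, the pituitary hormone genes Gh, Prl and Cga held 110, 19.4 and 2.54 CPM. The other brazzein libraries held at most 0.423, 0 and 0 CPM and the water libraries at most 7.58, 2.72 and 0.417 CPM, all in db/+ water replicate 1. A sucrose library, db/+ sucrose replicate 1, held more, at 312, 37.4 and 7.19 CPM. The summed pituitary list was 687 CPM in db/+ brazzein replicate 2, but also 643 CPM in db/db brazzein replicate 2 and 512 CPM in db/+ water replicate 1. The summed lists of hippocampus, of thalamus and habenula, and of choroid plexus and ependyma were also at their lowest of the 8 in db/+ water replicate 1. They held 687, 703 and 1270 CPM in it. The cerebellar, immediate early and pituitary results, where db/+ water replicate 1 and db/+ brazzein replicate 2 weigh most, are given with and without these libraries.

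No gene differed between brazzein and water at the threshold of 0.05. With genotype as a covariate, 0 of 23189 tested genes (0%) passed in edgeR's quasi-likelihood test with Benjamini-Hochberg adjustment, and the smallest adjusted p was 0.0702, for Xpo7. At an unadjusted p under 0.05 there were 406 genes with higher values (1.75%) and 395 with lower values (1.7%) in brazzein libraries. Together these 801 genes are 3.45% of those tested, where an even spread of p-values would put 5% in that range. All 4 brazzein libraries lay above all 4 water libraries for 253 genes (1.09%) and below them for 247 (1.07%). The median log2 fold change of all genes was 0.002, and 50.5% of genes had a higher fitted value with brazzein.

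**Figure D1:**
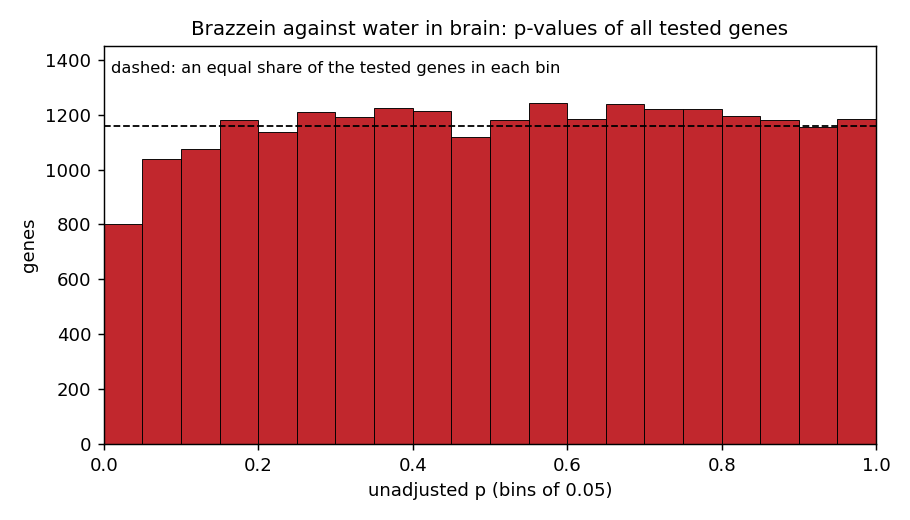
Number of tested genes (vertical axis) in 20 bins of unadjusted p from edgeR's quasi-likelihood test of brazzein against water (horizontal axis), with a dashed line at an equal share per bin. The first bin holds 801 genes, fewer than the equal share of 1159.

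The fit could place most genes within a narrow range. Among 16025 genes with a mean of at least 1 CPM, the median standard error (SE) of the log2 fold change was 0.125. The 95% interval lay wholly within a 2-fold change for 14020 of them (87.5%) and within a 1.5-fold change for 11134 (69.5%). Fitted changes beyond 2-fold numbered 178, of which 31 belonged to genes with a library near 0, meaning a median of at least 100 counts over the 8 libraries and 1 library below 0.1 of it. Such genes numbered 155, and their counts are estimates that can fail, so a value near 0 is not read as absence.

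DESeq2, run as an alternative on the same counts, called 37 genes (0.16%), 27 higher and 10 lower with brazzein. Of these, 29 had an official symbol and at least 1 CPM, and 1 of them, Xpo7, was a gene with a library near 0 as defined above. That definition needs a median of at least 100 counts, so it does not mark genes at 0 in most libraries. Among the 29, Cntnap5a held 9.7, 0, 24.8 and 0 CPM with brazzein and Ethe1 0.54, 0, 12.2 and 0 CPM. Both were at 0 CPM in every water library. In edgeR, leaving out 1 library at a time gave 0 or 1 calls. Without db/db water replicate 1 the call was Xpo7, with an edgeR adjusted p of 0.0378 and a log2 fold change of 4.19, against 4.44 with all libraries. Without db/+ brazzein replicate 1 it was a gene listed only as ENSMUSG00002075410, with an edgeR adjusted p of 2.7e-06 in place of 1 with all libraries.

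The genes of smallest p are described next. They have at least 1 CPM and a symbol other than a provisional one (Gm, Rik and the like). None passed in edgeR, and the adjusted p was 1 for each of them apart from Xpo7. That choice leaves out the predicted gene Gm5537, next to Xpo7 in p (log2 fold change 2.18, edgeR adjusted p = 0.204) and named here after its values were seen. It held 2.22, 2.13, 2.80 and 2.51 CPM with brazzein and 0.505, 0.735, 0.444 and 0.457 CPM with water. Its sucrose libraries held 0.625, 0.335, 2.16 and 3.13 CPM, so db/db lay near water and db/+ near brazzein. Xpo7, which encodes a nuclear transport receptor of the exportin family, held 75.5, 71.9, 64.9 and 70.9 CPM in brazzein libraries and 1.66, 3.00, 3.64 and 5.34 CPM in water libraries. The groups were far apart, with a mean of 70.8 ± 4.41 CPM with brazzein and 3.41 ± 1.53 CPM with water (SD, n = 4 each). In the sucrose libraries the same gene held 66.3, 113, 3.79 and 118 CPM. One sucrose library was thus as low as the water libraries and the other 3 were high, so its level moved more than 10-fold between replicates of one group. Its log2 fold change was 4.44 (SE 0.32) against water and -0.07 (SE 0.79) against sucrose.

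Dusp5, one of the genes that were higher with brazzein, had close replicates. It encodes a nuclear phosphatase that inactivates ERK kinases and is itself induced by growth factor and neuronal signals. The brazzein libraries held 33.3, 32.3, 34.0 and 33.0 CPM, and the water libraries 23.4, 24.7, 19.2 and 18.0 CPM. Every brazzein library was above every water library, and db/+ water libraries were below db/db ones. The means were 33.2 ± 0.692 CPM with brazzein and 21.3 ± 3.24 CPM with water (SD, n = 4 each), a log2 fold change of 0.65 (SE 0.10, 95% interval 0.42 to 0.88, unadjusted p = 0.000285, edgeR adjusted p = 1). Sucrose libraries, at 29.8, 34.9, 31.8 and 35.4 CPM, lay on either side of the brazzein libraries and above every water library, and the log2 fold change against sucrose was 0.01 (SE 0.07). Without db/+ water replicate 1 the log2 fold change of Dusp5 against water was 0.63.

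The 250 bases before the start of Dusp5 are shown with those of Fos, since both are immediate early genes and motifs of signal-dependent factors are known in such promoters. They come from RefSeq on build GRCm38.p6, which is not the build of the counts, and both genes lie on the plus strand. Dusp5 is at chr19:53528895-53529144 and Fos at chr12:85473640-85473889. Capitals mark the CArG box, the serum response factor motif, and TGACGT, the core of the cAMP response element, each searched on both strands with overlaps allowed.
Dusp5: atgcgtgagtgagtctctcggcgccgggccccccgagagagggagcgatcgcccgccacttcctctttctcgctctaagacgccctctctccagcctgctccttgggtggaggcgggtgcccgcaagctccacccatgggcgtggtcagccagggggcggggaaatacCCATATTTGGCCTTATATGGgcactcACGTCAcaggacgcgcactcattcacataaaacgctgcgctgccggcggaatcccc
Fos: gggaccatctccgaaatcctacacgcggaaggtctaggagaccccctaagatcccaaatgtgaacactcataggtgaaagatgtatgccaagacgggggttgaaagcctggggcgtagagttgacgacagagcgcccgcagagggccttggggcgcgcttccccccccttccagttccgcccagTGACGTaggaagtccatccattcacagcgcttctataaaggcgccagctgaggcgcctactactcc
The Dusp5 window held 2 CArG boxes, side by side, and 1 TGACGT on the minus strand. The Fos window held 1 TGACGT and no CArG box within these 250 bases. Among 32851 RefSeq windows of that length, 1.47% held a CArG box and 6.47% held TGACGT. A window of Nr4a1 held neither motif. A match describes letters in the window and is not evidence that a factor bound there.

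Unc79, part of the complex of the sodium leak channel NALCN, held 16.3, 19.1, 19.0 and 26.9 CPM with brazzein and 10.3, 8.93, 11.8 and 12.7 CPM with water (log2 fold change 0.89, SE 0.13, edgeR adjusted p = 1). Sucrose libraries split by genotype for this gene, with 10.8 and 10.7 CPM in db/db and 29.7 and 24.3 CPM in db/+. Dlgap1, a scaffold protein of the postsynaptic density, held 249, 287, 372 and 388 CPM with brazzein and 170, 194, 258 and 314 CPM with water, so the drinks overlapped while each genotype kept them apart. Cnr1, the CB1 cannabinoid receptor, held 173, 192, 184 and 177 CPM with brazzein and 162, 142, 154 and 150 CPM with water. That gap is small, at 0.25 (SE 0.05, 95% interval 0.13 to 0.38) on the log2 scale, but the groups did not overlap. With sucrose Cnr1 held 164, 151, 148 and 186 CPM, which overlapped both drinks.

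Fgfr1, a fibroblast growth factor receptor, held 84.7, 128, 67.5 and 91.2 CPM with brazzein and 51.4, 62.8, 23.7 and 35.3 CPM with water (log2 fold change 1.16, SE 0.22, edgeR adjusted p = 1). Bag6, a chaperone of protein quality control, held 46.7, 45.1, 35.3 and 46.9 CPM with brazzein and 34.7, 23.8, 21.0 and 18.6 CPM with water (log2 fold change 0.85, SE 0.17). Tfdp2, a partner of E2F transcription factors, had a log2 fold change of 0.47 (SE 0.07), and Taf2, a subunit of the general factor TFIID, one of 0.46 (SE 0.09). Otud7a, a deubiquitinase, held 5.86 to 13.7 CPM with brazzein and 2.21 to 3.70 CPM with water. Pou2f2, a POU domain transcription factor, ran from 0.241 to 3.97 CPM with brazzein and from 0.131 to 0.174 CPM with water, so its fitted 3.78 rests on a wide spread. Fxyd2, a regulator of the sodium pump, ran from 0.824 to 3.11 CPM with brazzein and from 0.548 to 0.941 CPM with water, with overlap between the drinks.

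Mief1, which recruits the fission protein Drp1 to mitochondria, held 21.9, 22.3, 31.2 and 27.2 CPM with brazzein and 13.6, 11.2, 15.4 and 21.2 CPM with water. Stoml2, a protein of the inner membrane, held 40.4, 44.0, 35.2 and 31.1 CPM with brazzein and 18.2, 23.6, 24.5 and 25.8 CPM with water (log2 fold change 0.71, SE 0.15). Its sucrose libraries, at 22.7, 22.0, 27.8 and 22.8 CPM, were at the level of water. Nudt9, an ADP-ribose hydrolase, had a log2 fold change of 0.64 (SE 0.12). Cpt1c, the neuronal form of carnitine palmitoyltransferase 1, which sits in the endoplasmic reticulum, had one of -0.48 (SE 0.10), from 20.2, 18.8, 30.1 and 38.1 CPM with brazzein and 27.2, 29.9, 46.1 and 44.0 CPM with water.

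The lower gene of smallest p was Pa2g4, a nucleolar and RNA-binding protein of growth control. It held 64.4, 55.6, 66.4 and 59.4 CPM with brazzein and 83.7, 81.1, 82.3 and 82.9 CPM with water, with no overlap and a log2 fold change of -0.42 (SE 0.06, 95% interval -0.57 to -0.27, edgeR adjusted p = 1). Adgrl3, latrophilin 3, an adhesion receptor of synapses, held 37.8, 29.5, 31.7 and 25.5 CPM with brazzein and 53.7, 57.1, 44.0 and 42.2 CPM with water (log2 fold change -0.65, SE 0.11). Commd6, a COMM domain protein, held 17.1, 17.4, 13.8 and 16.9 CPM with brazzein and 28.2, 25.3, 21.2 and 20.3 CPM with water (log2 fold change -0.53, SE 0.10). Trmt61a, which methylates adenosine in transfer RNA, had a log2 fold change of -0.59 (SE 0.12). Sucrose libraries held 60.8 to 80.3 CPM of Pa2g4 and 31.5 to 42.3 CPM of Adgrl3, with means of 70.4 and 36.9 CPM that lay between those of brazzein (61.4 and 31.1 CPM) and water (82.5 and 49.2 CPM).

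**Figure D2:**
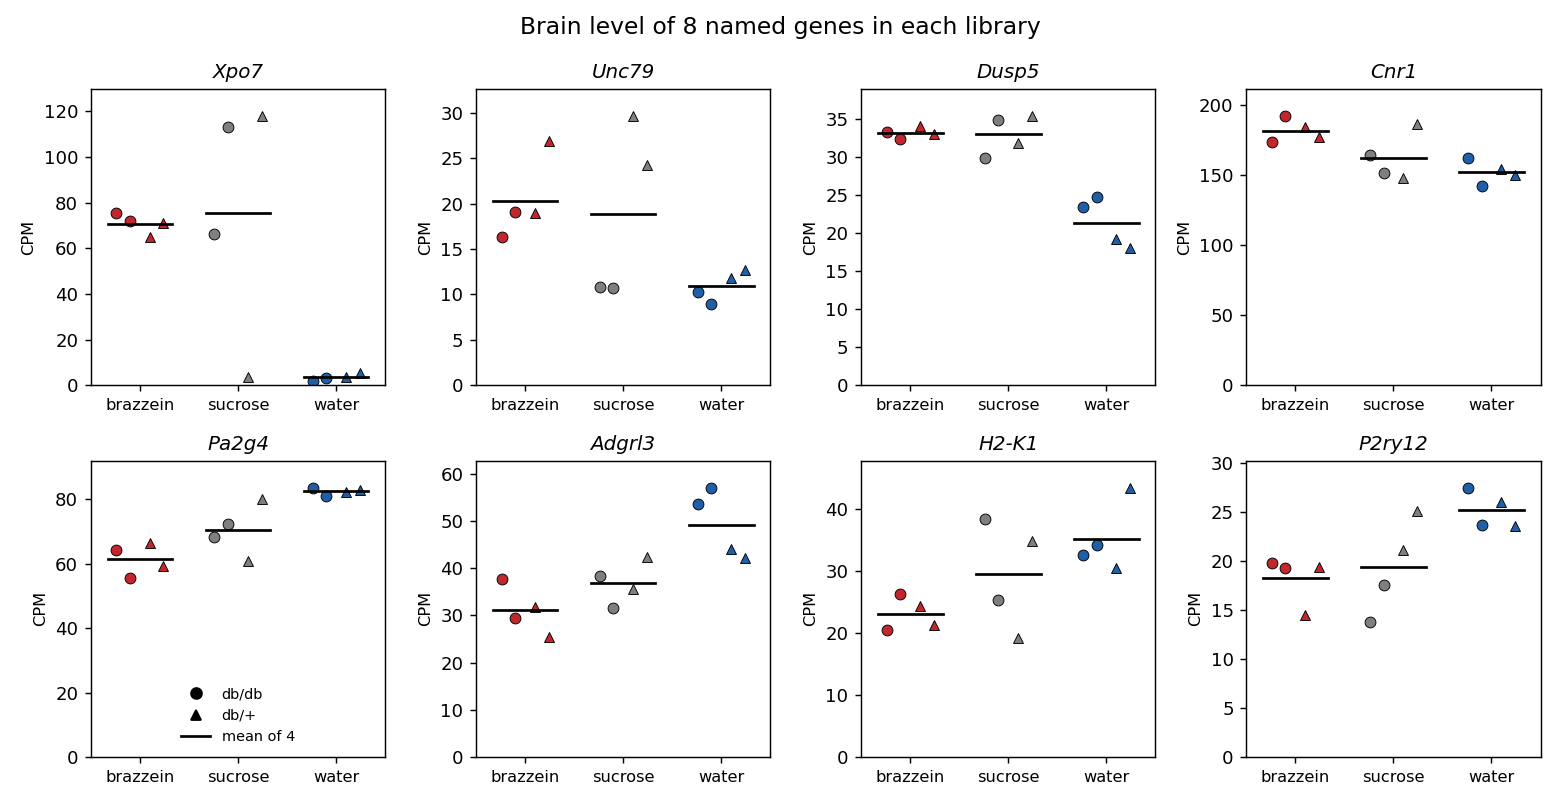
CPM of 8 genes (one panel each, vertical axis from 0) in the 4 brazzein, 4 sucrose and 4 water brain libraries, with circles for db/db, triangles for db/+ and a line at the mean of 4. Brazzein and water do not overlap in any panel, while Xpo7 has a sucrose library at 3.79 CPM and another at 118 CPM.

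The sign of the cerebellar list turned on 1 water library. With all 8 libraries, 28 of 28 genes of the cerebellar list had a higher fitted value, with a median log2 fold change of 0.21 and 1 gene, Eomes, at an unadjusted p under 0.05. Without db/+ water replicate 1, 6 were higher and 22 lower, and the median was -0.04. Pcp2 itself held 70.1, 61.1, 63.2 and 62.5 CPM with brazzein and 70.3, 72.5, 17.4 and 69.5 CPM with water. Its log2 fold change was 0.21 (SE 0.40) with that library and -0.13 without it (unadjusted p = 0.069, edgeR adjusted p = 0.996). Cbln3, a granule cell gene, held 293, 274, 328 and 325 CPM with brazzein and 298, 326, 78.9 and 335 CPM with water. In bulk tissue, fewer cells of a type and less RNA per cell cannot be told apart, and how the tissue was cut was not given.

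The absence of edgeR calls did not rest on that library. Without db/+ water replicate 1, 0 of 24387 genes were called in edgeR, with 485 higher (1.99%) and 386 lower (1.58%) at an unadjusted p under 0.05. With the summed cerebellar level as a covariate, edgeR called 0 genes as well. The library's summed cerebellar level was 2600 CPM, and the other water libraries lay between 4330 and 4750 CPM. Brazzein libraries lay between 4110 and 4700 CPM, so the covariate mainly marks db/+ water replicate 1 and is not a separate check.

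Immediate early genes, which neurons transcribe soon after stimulation, as a list also turned on db/+ water replicate 1. With all 8 libraries their median log2 fold change was 0.06, 22 of 39 had a higher and 17 a lower fitted value, and at an unadjusted p under 0.05 there was 1 higher, Dusp5, and 1 lower, Atf3. Without the library the median was 0.31 and 33 of 39 had a higher value. At an unadjusted p under 0.05, 13 were higher and 0 lower (all genes in that fit, 1.99% and 1.58%). None passed in edgeR, where the adjusted p of each was 0.996. Among all genes the median was then -0.002, with 49.4% higher. The library was left out for its low cerebellar genes, but its early genes stood apart as well, so the 13 are a description.

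Arc, which acts at synapses during plasticity, shows the pattern. It held 113, 71.4, 73.7 and 124 CPM with brazzein and 49.7, 35.1, 220 and 38.4 CPM with water. All brazzein libraries were above 3 of the water libraries, and the fourth was the highest of the 8. Its log2 fold change was 0.37 (SE 0.60) with all libraries and 1.22 without db/+ water replicate 1 (unadjusted p = 0.0048, edgeR adjusted p = 0.996). Fos, a subunit of the AP-1 transcription factor, held 24.0, 11.3, 15.0 and 24.9 CPM with brazzein and 14.6, 7.93, 52.1 and 5.86 CPM with water. Nr4a1, an orphan nuclear receptor, held 70.8, 37.8, 45.2 and 59.1 CPM with brazzein and 21.5, 28.7, 119 and 21.3 CPM with water. Junb, another AP-1 subunit, held 67.5, 54.5, 49.7 and 59.1 CPM with brazzein and 44.0, 40.2, 106 and 33.1 CPM with water.

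Sucrose libraries were close to brazzein libraries for these genes. Arc held 92.7, 88.5, 114 and 116 CPM and Nr4a1 62.1, 47.2, 57.3 and 63.3 CPM with sucrose. The median log2 fold change of the list against sucrose was -0.02. The summed level of the list ran from 1350 to 1570 CPM with brazzein, from 1480 to 1580 CPM with sucrose and from 1080 to 1960 CPM with water. Npas4, an activity-dependent factor of neurons, overlapped between the drinks, with 10.5, 6.15, 5.43 and 6.22 CPM with brazzein and 6.71, 4.95, 25.4 and 6.65 CPM with water. Egr3, at 94.7, 146, 90.4 and 96.0 CPM with brazzein and 99.0, 68.0, 109 and 77.8 CPM with water, overlapped between the drinks. With the summed cerebellar level as a covariate in the fit of 8 libraries, the median of the early gene list was 0.32. That covariate mainly marks db/+ water replicate 1, so the value is not separate from the one without that library.

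**Figure D3:**
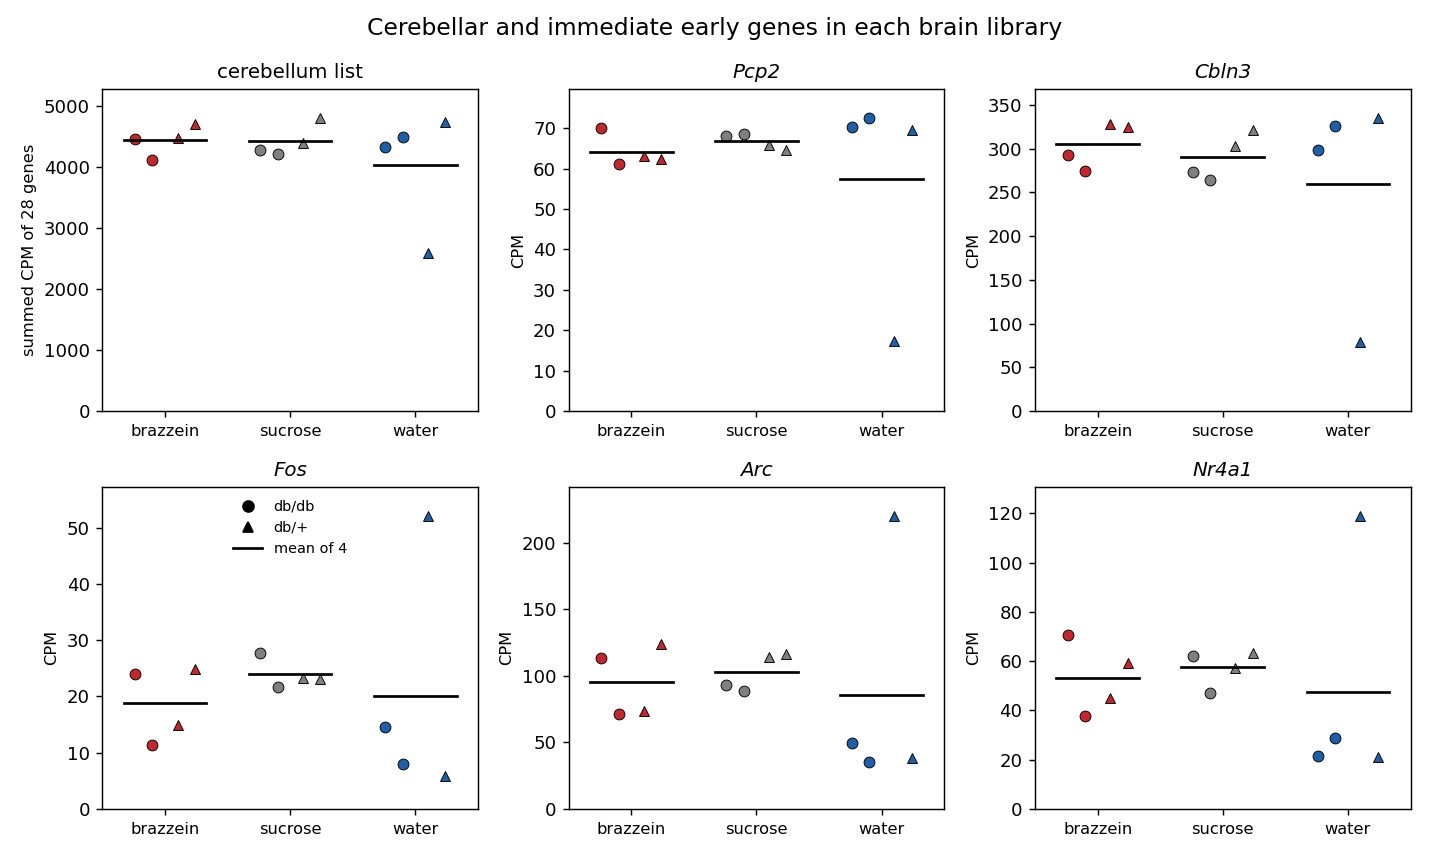
CPM (vertical axes from 0) in the 4 brazzein, 4 sucrose and 4 water brain libraries of the summed 28 cerebellar genes, Pcp2, Cbln3, Fos, Arc and Nr4a1, with circles for db/db, triangles for db/+ and a line at the mean of 4. One db/+ water library is lowest in the top row (17.4 CPM for Pcp2) and highest in the bottom row (220 CPM for Arc).

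No difference in the sweet taste receptor genes was detectable at these levels. Tas1r2 was listed at 0 in 6 of 8 libraries, with 0.128 CPM in 1 brazzein and 0.0401 CPM in 1 water library, and was too low to test. Tas1r3 held 1.56, 1.59, 1.02 and 0.943 CPM with brazzein and 1.13, 2.10, 0.914 and 1.24 CPM with water, a log2 fold change of -0.08 (SE 0.22, 95% interval -0.59 to 0.43). Of 17 genes of the receptor and its transduction, 11 were tested, and 0 were higher and 1 was lower at an unadjusted p under 0.05. That gene was Plcb2, the phospholipase of taste cells, with 2.84 to 2.98 CPM with brazzein and 2.95 to 3.91 CPM with water.

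Hypothalamic feeding genes had a median log2 fold change of -0.03, in a range from -1.06 (Sst) to 0.81 (Qrfp). Agrp, a peptide that promotes feeding, held 1.09, 1.02, 0.934 and 0.624 CPM with brazzein and 0.757, 0.641, 0.699 and 0.705 CPM with water (log2 fold change 0.38, SE 0.19, edgeR adjusted p = 1). Npy, which acts in the same neurons and in others, had a log2 fold change of -0.09 (SE 0.09), and Crh, the stress releasing hormone, one of -0.05 (SE 0.13). Pomc, the precursor of the satiety peptide alpha-MSH, held 1.78, 1.53, 2.31 and 28.5 CPM with brazzein and 2.21, 1.58, 7.18 and 2.89 CPM with water. Its highest library, db/+ brazzein replicate 2, was also the highest brazzein or water library for the pituitary hormones Gh and Prl. The pituitary also makes Pomc, and its part in the value was not tested. Without that library the log2 fold change of Pomc was -0.56, in place of 0.74.

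Of 34 tested feeding and hormone peptides, 0 were higher and 1 was lower at an unadjusted p under 0.05, namely Adcyap1, the precursor of PACAP. It held 11.3, 15.8, 16.6 and 13.8 CPM with brazzein and 24.3, 17.8, 18.2 and 18.4 CPM with water, with no overlap (log2 fold change -0.45, SE 0.16). Among 30 leptin and insulin signalling genes, 2 were higher at that limit (all genes, 1.75%), with 19 of 30 positive in sign (all genes, 50.5%). The 2 were Stat3, the transcription factor under the leptin receptor, with a log2 fold change of 0.15 (SE 0.06), and Pik3r1, a regulatory subunit of PI3 kinase, with one of 0.13 (SE 0.05). The adjusted p was 1 for both. In db/db, 13 of 30 were positive, with Stat3 at 0.08 and Pik3r1 at 0.04, and in db/+ 20 of 30, with both genes at 0.22. Without db/+ water replicate 1, 16 of 30 were positive in the pooled fit, and the list median was 0.01.

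Reward and synaptic genes stayed close to the all-gene median. Of 38 dopamine, serotonin and noradrenaline genes, none reached an unadjusted p under 0.05 in edgeR, and their median log2 fold change was 0.01. The dopamine receptors Drd1 and Drd2 had log2 fold changes of 0.02 (SE 0.10, 95% interval -0.21 to 0.24) and -0.06 (SE 0.12, 95% interval -0.35 to 0.24). Of 16 opioid and endocannabinoid genes, 1 was higher, Cnr1, and the median was 0.02. Bdnf, the neurotrophin, held 23.7, 32.2, 22.6 and 24.7 CPM with brazzein and 23.5, 16.9, 25.0 and 18.4 CPM with water (log2 fold change 0.30, SE 0.17). Glutamate receptor and transport genes had 2 higher and 1 lower of 34 (all genes, 1.75% and 1.7%). The lower one, Grm5, a metabotropic glutamate receptor, lay at 57.8 to 62.4 CPM with brazzein and 62.5 to 112 CPM with water. Among 36 synaptic vesicle and postsynaptic genes there were 2 higher and 0 lower, and among 24 GABA genes 0 and 0, at the same limit.

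Microglial and antigen presentation genes were mostly lower with brazzein, by small amounts. Of 31 microglial genes, 26 had a lower fitted value, 5 at an unadjusted p under 0.05 (all genes, 1.7%), with a median log2 fold change of -0.11. P2ry12, the ADP receptor of resting microglia, held 19.8, 19.3, 14.5 and 19.4 CPM with brazzein and 27.5, 23.7, 26.0 and 23.6 CPM with water (log2 fold change -0.47, SE 0.11, edgeR adjusted p = 1). Its sucrose libraries, at 13.8, 17.6, 21.1 and 25.1 CPM, spanned both groups. By genotype the microglial median was -0.01 in db/db and -0.17 in db/+. Without db/+ water replicate 1 it was -0.06, with 25 of 31 lower.

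Of 36 interferon response and antigen presentation genes, 29 had a lower value, 5 of them at an unadjusted p under 0.05 (all genes, 1.7%), with a median log2 fold change of -0.19. Without db/+ water replicate 1 the median was -0.22, with 31 of 36 lower, and without db/+ water replicate 2 it was -0.09. H2-K1, a class I histocompatibility heavy chain, held 20.4, 26.2, 24.3 and 21.3 CPM with brazzein and 32.6, 34.2, 30.5 and 43.4 CPM with water (log2 fold change -0.61, SE 0.14, edgeR adjusted p = 1). H2-Aa, a class II chain, held 2.10, 2, 2.04 and 2.08 CPM with brazzein and 2.75, 2.55, 2.88 and 3.85 CPM with water (log2 fold change -0.53, SE 0.14). Neither gene overlapped between the drinks (all genes, 1.07% below), although H2 genes are near-identical in parts and counting could split their reads. The summed levels overlapped, at 372 to 424 CPM with brazzein and 387 to 455 CPM with water. Inflammatory cytokines and chemokines had 1 higher and 0 lower of 30, and complement genes 0 higher and 2 lower of 19 (all genes, 1.75% and 1.7%).

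Astrocyte and myelin genes did not separate the drinks. Gfap, the intermediate filament of astrocytes, held 251, 331, 225 and 270 CPM with brazzein and 222, 231, 191 and 249 CPM with water (log2 fold change 0.27, SE 0.12, 95% interval -0.03 to 0.56). Mbp, a myelin protein, averaged 3980 ± 285 CPM with brazzein and 4000 ± 265 CPM with water (SD, n = 4 each). Of 32 astrocyte genes, 1 was higher and 1 lower at an unadjusted p under 0.05, and of 30 oligodendrocyte and myelin genes, 0 and 0. Ttr, which the choroid plexus secretes, held 1260, 1220, 959 and 956 CPM with brazzein and 1070, 1200, 714 and 983 CPM with water, with its lowest value in db/+ water replicate 1. The choroid plexus and ependyma list had a median log2 fold change of 0.09 with all libraries, with 21 of 28 genes higher. Without db/+ water replicate 1 its median was -0.01, with 11 of 28 higher. Hba-a1, an alpha globin gene of blood, ran from 218 to 538 CPM with brazzein and from 335 to 601 CPM with water.

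Ribosomal protein genes had lower values with brazzein by small amounts. Of 77 genes for cytosolic ribosomal proteins, 73 had a lower fitted value with brazzein, 17 at an unadjusted p under 0.05 (all genes, 1.7%), and the median log2 fold change was -0.07 in a range of -0.15 to 0.26. Rpl37a, for example, held 152, 145, 137 and 134 CPM with brazzein and 156, 167, 149 and 147 CPM with water (log2 fold change -0.12, SE 0.04, edgeR adjusted p = 1). Without db/+ water replicate 1 there were 73 lower, 4 of them at an unadjusted p under 0.05, with a median of -0.05. The summed level ran from 16100 to 17900 CPM with brazzein and from 17400 to 18100 CPM with water, so the groups overlapped. By genotype the median was -0.03 in db/db and -0.11 in db/+. Genes are not replicates, so these counts describe the list and are no test of it.

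Metabolic genes had medians near that of all genes. Of 72 nuclear genes of the respiratory chain, 63 had a lower value, 5 at an unadjusted p under 0.05 (all genes, 1.7%), with a median log2 fold change of -0.05. Without db/+ water replicate 1 there were 63 lower, 0 of them at an unadjusted p under 0.05, with a median of -0.04. Cholesterol synthesis genes had 21 of 28 higher values and a median of 0.06, with 1 gene, Cyp51, at an unadjusted p under 0.05. Glycolysis and glucose transport genes (32 tested) and heat shock and unfolded protein response genes (34 tested) had 0 in either direction. Of 22 clock genes 2 were higher at that limit (all genes, 1.75%). Among them was Cry2, a repressor of the clock, at 139, 178, 148 and 169 CPM with brazzein and 113, 108, 108 and 156 CPM with water. Dbp, a clock output gene, ranged from 30.1 to 136 CPM with brazzein and from 39.3 to 97.7 CPM with water, more within each drink than between them.

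Genes of brain regions other than the cerebellum gave small medians. They were 0.01 for 22 genes of striatal medium spiny neurons, -0.01 for 19 hippocampal genes, 0.00 for 23 cortical genes, 0.05 for 20 genes of thalamus and habenula, -0.02 for 24 regional genes of the hypothalamus and -0.05 for 20 genes of the olfactory bulb. At an unadjusted p under 0.05, each of these lists held at most 1 gene in either direction. In the striatal list the higher gene was Adora2a, an adenosine receptor, with 7.87, 16.7, 8.89 and 12.8 CPM with brazzein and 3.09, 3.25, 10.6 and 4.44 CPM with water. Its log2 fold change was 1.24 with all libraries and 1.68 without db/+ water replicate 1. The 12 pituitary genes tested had a median of 0.31 with all libraries and -0.24 without db/+ brazzein replicate 2, and 0 of them reached an unadjusted p under 0.05.

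Pooled medians of stress and growth genes were close to these. Glucocorticoid responsive and stress axis genes had a median of 0.06 over 29 genes, 0 higher and 1 lower at an unadjusted p under 0.05. By genotype the median was -0.06 in db/db, with 12 of 29 higher, and 0.23 in db/+, with 23 of 29 higher. Sgk1, a kinase that glucocorticoids induce, held 200, 186, 217 and 160 CPM with brazzein and 129, 211, 110 and 59.0 CPM with water (log2 fold change 0.67, SE 0.31). Fkbp5, another such gene, had a log2 fold change of 0.06 (SE 0.17). Sgk1 had 0.17 (SE 0.36) in db/db and 1.17 (SE 0.36) in db/+, and Fkbp5 -0.19 (SE 0.22) and 0.31 (SE 0.22). The edgeR adjusted p of the difference between genotypes was 0.952 for both genes. Neurotrophin and CREB genes had a median of 0.05 over 25 genes and thyroid hormone responsive genes one of 0.01 over 15, with 0 genes at an unadjusted p under 0.05 in both lists.

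**Figure D4:**
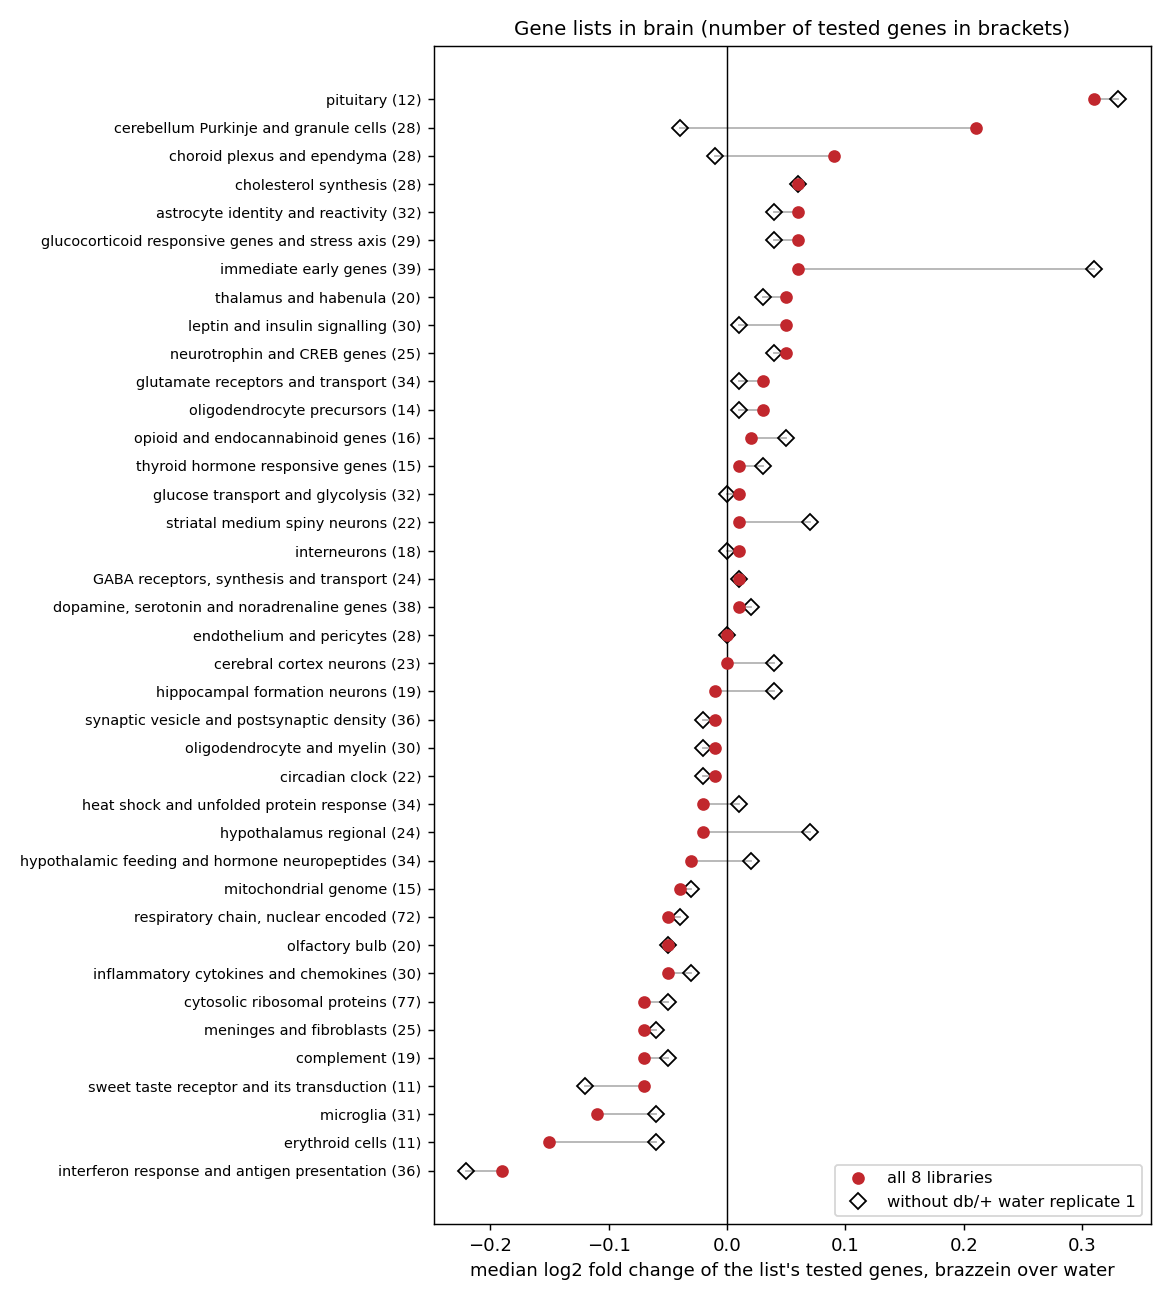
Median log2 fold change of brazzein over water (horizontal axis) for each gene list with at least 10 tested genes (vertical axis, number tested in brackets), with filled circles for all 8 libraries and open diamonds without db/+ water replicate 1. The cerebellar list lies at 0.21 with all libraries and -0.04 without that one, and the immediate early list at 0.06 and 0.31.

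Across genes, the fitted changes in db/db and in db/+ had nearly no correlation. Within db/db, 0 genes were called in edgeR, 920 (3.97%) had an unadjusted p under 0.05, and DESeq2 called 105. Within db/+ the counts were 0 in edgeR, 1013 (4.37%) and 114. Over the 16025 genes with at least 1 CPM, the log2 fold changes of db/db and db/+ correlated at Pearson's r = 0.1 and Spearman's rho = -0.04, across genes that share the libraries of each genotype. The same sign was seen for 7686 genes (48%). These values were r = 0.09, rho = 0 and 49.9% without db/+ water replicate 1. Of 654 genes at an unadjusted p under 0.05 in db/db and 747 in db/+, 103 were in both, and 35 of these had the same sign. The 103 are 15.7% of the db/db genes, beside 4.37% of all tested genes in db/+, and 13.8% of the db/+ genes, beside 3.97% in db/db. Both tests take the spread of a gene from the same fit, so a gene of small spread can pass in both, and the overlap is no measure of agreement.

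The test of the difference between genotypes gave 0 calls in edgeR, 1092 genes (4.71%) at an unadjusted p under 0.05 and 112 calls in DESeq2. Dusp5 had log2 fold changes of 0.44 (SE 0.09) in db/db and 0.86 (SE 0.09) in db/+, with an unadjusted p of 0.0143 for their difference (edgeR adjusted p = 0.952). Stoml2 had 1.00 (SE 0.15) in db/db and 0.41 (SE 0.15) in db/+, with an unadjusted p of 0.0272. Unc79 had 0.87 (SE 0.20) in db/db and 0.92 (SE 0.20) in db/+. The immediate early list had a median of 0.40 in db/db and -0.13 in db/+, the genotype that holds db/+ water replicate 1. Arc, for instance, had 1.12 (SE 0.79) in db/db and -0.37 (SE 0.78) in db/+. Without that library, which leaves 1 db/+ water library, the median in db/+ was 0.38 with 32 of 39 genes higher, and Arc had 1.37 (SE 0.48, edgeR adjusted p = 1).

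With 2 libraries a group, the counts of calls within a genotype turned on single libraries. In db/db, edgeR called 4 and 6 genes when replicate 1 or 2 of db/db brazzein was left out, 16 and 3 for those of db/db water, and 1 for each of db/+ brazzein. In db/+, it called 2 genes when replicate 1 of db/+ brazzein was left out, and 3 and 21 for replicates 1 and 2 of db/+ water. Leaving out replicate 2 makes the library with low cerebellar genes the lone db/+ water library, and 9 of the 21 genes are on the cerebellar list, Pcp2, Car8 and Gabra6 among them. Of the 3 calls without replicate 1, 0 are on that list. For the difference between genotypes the count reached 17 without db/+ water replicate 2, 6 of them on the cerebellar list, and ran from 1 to 5 for the other 7 libraries. In these fits a lone library is assumed to vary like the other groups.

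**Figure D5:**
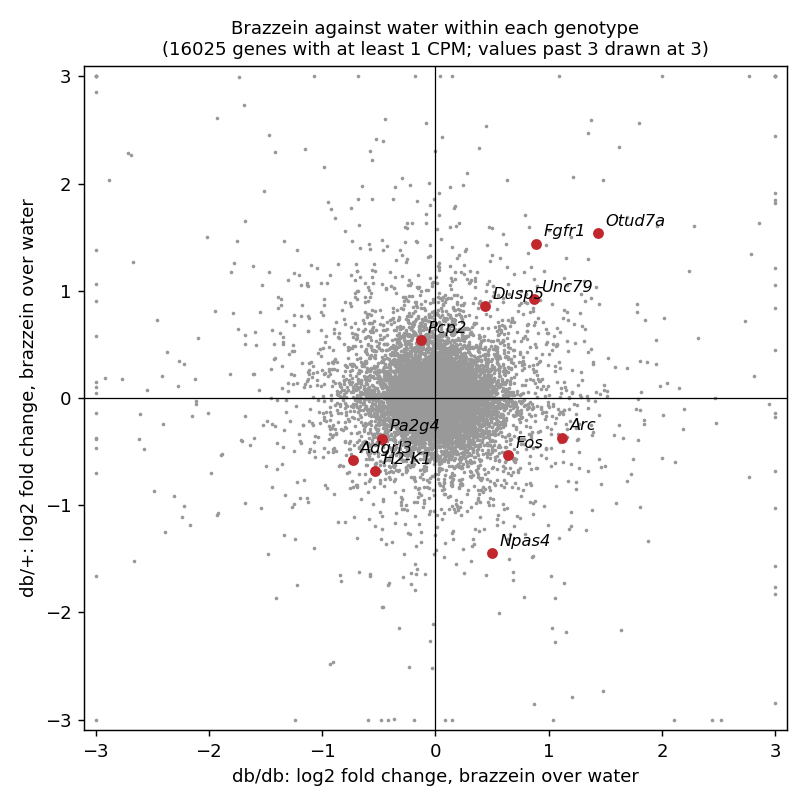
Log2 fold change of brazzein over water in db/db (horizontal axis) and in db/+ (vertical axis) for 16025 genes with at least 1 CPM, with 11 named genes in red and values beyond the axes drawn at their edge. The cloud has nearly no slope (r = 0.1), Unc79, Dusp5, Fgfr1 and Otud7a lie in the upper right, and Arc, Fos and Npas4 in the lower right.

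Set against the other sweet drink, brazzein gave 0 edgeR calls of 23653 genes, 932 (3.94%) at an unadjusted p under 0.05 and 69 calls in DESeq2. This fit used all 12 brain libraries and shares the brazzein libraries with the comparison against water. Some leading genes had sucrose levels near those of brazzein, such as Dusp5 at 0.01 (SE 0.07) and Taf2 at -0.11 (SE 0.10) on the log2 scale of brazzein over sucrose. Others had mean sucrose levels near those of water, such as Stoml2 at 0.65 (SE 0.10), Bag6 at 0.69 (SE 0.23) and Commd6 at -0.46 (SE 0.08). Commd6 split by genotype, with 18.4 and 20.2 CPM in db/db sucrose libraries and 26.2 and 25.4 CPM in db/+ ones. The db/db values lay near those of db/db brazzein (17.1 and 17.4 CPM). Bag6 held 19.8, 38.3, 20.7 and 28.7 CPM with sucrose, and the value of 38.3 CPM lay within the brazzein range. Leaving out 1 library gave up to 10 calls, a count reached when replicate 2 was dropped from db/db brazzein or from db/db sucrose. It was 9 for replicate 1 of either brazzein group, 3 for replicate 2 of db/+ brazzein, 4 for replicate 1 of db/+ sucrose and 3 for replicate 1 of db/db sucrose.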

How the data were processed

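Per the labels' protocols, brain RNA was isolated with TRIzol and selected for poly(A), and the library kit was NEBNext Ultra II RNA. That kit does not mark strand, so reads of genes that overlap, antisense ones included, cannot be separated. The submitters' processing notes name bcl2fastq and GRCm39, whereas aligner, counter and annotation were not given in the sources used here. The authors deposited, per sample, 1 whole number for each of 55797 genes, taken here as estimated counts (expected counts) not scaled for depth. Groups come from the sample titles, because the genotype entry of the labels differs from the title for 6 brain samples.

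Tests were run with edgeR 4.0.16 in R 4.3.3 (filterByExpr by group, TMM factors, robust quasi-likelihood tests, Benjamini-Hochberg adjustment over all genes, threshold 0.05). The model held genotype and drink over 8 libraries (5 residual degrees of freedom), 4 groups for values within genotypes (4), and 6 groups over 12 libraries for sucrose (6). The SE is the log2 fold change divided by the square root of F. Alternatives were no filter, RLE factors, DESeq2 1.42.0, a replicate block, other libraries in the fit, a cerebellar covariate, no genes near 0, and each library left out. Leaving out 2 libraries together was chosen after seeing the data.

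The comparison, the 40 gene lists and the alternatives were chosen with earlier results of these data known. Named genes were 21 panel genes, the 20 genes of smallest p with a symbol other than a provisional one and at least 1 CPM, and the 2 members of smallest p in each list, besides markers of the tissue and the immediate early list. Other genes were named where they were the only call. The fits were tested on simulated counts. Liver libraries were not used here.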

Additional observations from a re-analysis of the deposited data

Results flagged for a closer look

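In groups of 4 libraries, a library was set aside for a closer look when its gap to the nearest other library exceeded Dixon's limit for 4 values. Chance does this in about 1 of 20 groups, and 8 of the 160 groups examined (named genes and summed lists, by drink) did so.

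Most of the water cases came from 1 library, db/+ water replicate 1. Its Pcp2 level was 17.4 CPM, with the other water libraries at 69.5 to 72.5 CPM, and its summed cerebellar level was 2600 CPM, with the others at 4330 to 4750 CPM. Its summed level of regional hypothalamic genes was 1120 CPM, above 976 to 995 CPM in the others, and its Fxyd2 level was 0.941 CPM, above 0.548 to 0.574 CPM. In db/db water replicate 2, the clock gene Per1 held 114 CPM, with the others at 75.7 to 79.9 CPM.

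Among brazzein libraries, Pomc held 28.5 CPM in db/+ brazzein replicate 2, with the others at 1.53 to 2.31 CPM. In db/+ brazzein replicate 1, Commd6 held 13.8 CPM, with the others at 16.9 to 17.4 CPM, and Bag6 held 35.3 CPM, with the others at 45.1 to 46.9 CPM.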

How the results depend on the processing

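For brazzein against water with genotypes pooled, edgeR called 0 genes with all 8 libraries and under each alternative in edgeR other than leaving out single libraries, which gave 0 to 1. DESeq2 called 37 genes there, 105 in db/db, 114 in db/+, 112 for the difference between genotypes and 69 against sucrose, where edgeR called 0, and the cause was not tested. Leaving out 1 library gave 0 to 16 calls in db/db, 0 to 21 in db/+, 1 to 17 for the difference between genotypes and 0 to 10 against sucrose. A single gene was called in db/db without a filter (Tmem127, edgeR adjusted p = 0.0474), in db/+ with the cerebellar covariate (Acot7, edgeR adjusted p = 0.0449), and in db/db (1) and against sucrose (1) without the pair of libraries that stood apart. With the replicate number as a replicate block, edgeR called 1 gene in db/db (Tmem127, edgeR adjusted p = 0.0129) and 0 in the other comparisons. Libraries of the same number did not deviate together (correlations of -0.05 to 0.06 in 6 pairs), so the numbers were not taken to pair samples.

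Of 639 values of 40 named genes, 582 kept their sign and their side of the threshold, 20 passed it and 37 changed sign, all of genes that were not called. With the cerebellar covariate these were Pcp2 (-0.02), Npas4 (0.12), Mbp (0) and Drd2 (0.02). Without the pair of libraries they were Pcp2 (-0.13), Hba-a1 (0.07), Npas4 (0.24), Pomc (-0.24), Npy (0.01), Drd2 (0.04) and Per1 (0.03). Leaving out single libraries gave log2 fold changes of -0.13 to 0.58 for Pcp2, -0.25 to 0.11 for Tas1r3, -0.49 to 0.03 for Hba-a1, -0.32 to 1.07 for Fos, -0.82 to 0.22 for Npas4, -0.56 to 1.02 for Pomc, -0.15 to 0.06 for Crh, -0.05 to 0.03 for Mbp, -0.04 to 0.11 for Drd1, -0.15 to 0.04 for Drd2, -0.1 to 0.2 for Fkbp5, -0.12 to 0.08 for Per1 and -0.09 to 0.73 for Dbp. Of 640 medians of 40 lists, 606 stayed within the spread between replicates and 34 did not. That spread takes in db/+ water replicate 1, and its SD is 0.429 for the cerebellar list and 0.296 for the immediate early list. A shift made by leaving that library out can therefore count as within it. Genes with few counts or a library near 0 have wide intervals, and a change under 1.5-fold was not detectable for many of them.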
